A study of Drosophila melanogaster with 3 samples.

Results

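Dorsocross 3 (Doc3) is a T-box transcription factor of *Drosophila melanogaster*. Its recovery on chromatin was examined at 8 genes of the amnioserosa, namely zen, tup, ush, peb, srp, C15, Kr and Ance. These are 8 of the 13945 protein-coding genes on the main chromosome sequences of the fly. The rule names the genes and uses no peak values, though the list was drawn up with earlier results of these data known. For each gene the territory was the gene body with 20 kb either side, without the bases that lie nearer to a transcription start site (TSS) of another coding gene. The data came from chromatin immunoprecipitation and sequencing (ChIP-seq) of whole embryos aged 0 to 24 hours. The embryos carried an eGFP-tagged Doc3 transgene, in the strain Doc3-GFP, and an antibody against GFP was used for the pull-down. There were 3 biological replicates of a single group, and no input, mock or untagged sample was analysed here. All comparisons below therefore set the 8 genes beside all coding genes of the same lists, and no test between groups was possible.

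The amnioserosa is a thin extraembryonic epithelium that covers the dorsal side of the embryo. High Dpp signalling along the dorsal midline keeps zen active there, and the Dorsocross genes, tup, ush, peb and C15 act in or beside the tissue from then on. The tissue takes part in germ band retraction and in dorsal closure, and Dorsocross function is known to be needed for its development. In this group, zen, tup and C15 encode homeodomain proteins. The zinc-finger proteins are ush, a cofactor of GATA factors, peb (also known as hindsight), srp, itself a GATA factor, and Kr, a gap gene that is later a marker of the tissue. Ance encodes a secreted peptidase related to angiotensin-converting enzyme and is a marker of the tissue, so the word regulator does not describe it. Peak lists hold no expression values, and the tissue source of the chromatin could not be checked against marker genes.

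None of the 8 genes had a peak of the authors' conservative list in its territory, against 16.7% of all coding genes. The conservative list holds 2793 regions that the authors marked as passing a reproducibility threshold. For a count of 0 of 8 the 95% Wilson interval reaches 32.4%, so the count does not set these genes apart from the rest. The longest of the 4 series-level lists, with 3507 peaks, added a peak at 1 of the 8, ush (12.5%, 95% Wilson interval 2.24 to 47.1%), against 21.3% of all coding genes. Thresholded lists of the single replicates gave a peak at 3 of the 8, ush, peb and Kr (37.5%, interval 13.7 to 69.4%), against 19.1% of all coding genes. All of these peaks came from replicate 2, whose thresholded list is the longest, with 2486 peaks against 1761 in replicate 1 and 1802 in replicate 3. Whether list length plays a part was not tested. No gene had a thresholded peak in at least 2 replicates. Intervals cover counting error only, and sequencing depth is unknown. In whole embryos, recovery in few cells and weak recovery in many cells cannot be told apart.

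Weaker regions were listed in all 8 territories. The ranked lists hold 29964, 59282 and 139013 regions on the main chromosome sequences in replicates 1, 2 and 3, and cover 7.90, 16.5 and 35.2% of them. A region was called shared when a replicate 1 region overlapped, by at least 1 bp, a region of each of the other replicates. A shared region lay in the territory of 6 of the 8 genes (75%, interval 40.9 to 92.8%), against 54.1% of all coding genes. Only zen and srp had none. The territories of the 8 genes were larger than most, with a median of 24.6 kb against 4.33 kb, and length alone gives more room for a region. Per 10 kb of territory the 8 genes held 0.64 shared regions, against 1.11 for all coding genes. In all there were 12 shared regions in 187 kb. That number depended on the rule, with 55 when replicate 1 was left out, 26 without replicate 2, 5 when summits had to lie within 100 bp and 3 on the top 50% of each list. Over all coding genes, with each region counted once, these rules gave 3.12, 1.74, 0.51 and 0.49 per 10 kb. For 187 kb, the count of 55 is close to that rate, while 26, 5 and 3 are below it. Ranked regions of single replicates were at 2.14, 5.07 and 10.1 per 10 kb in the 8 territories, against 2.42, 4.78 and 10.8 for all coding genes, and covered 7.62, 19.3 and 35.4% of the bases, against 8.52, 17.8 and 36.6%. In density of weak regions the 8 genes were thus close to the rest in each replicate. In shared regions they were below the rest, though only slightly when replicate 1 was left out. With regions shared by all 3 replicates, the median gene held 0.45 per 10 kb among the 8, against 0.59 among all coding genes. The counts are small, and no interval was computed for these rates.

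**Figure D1:**
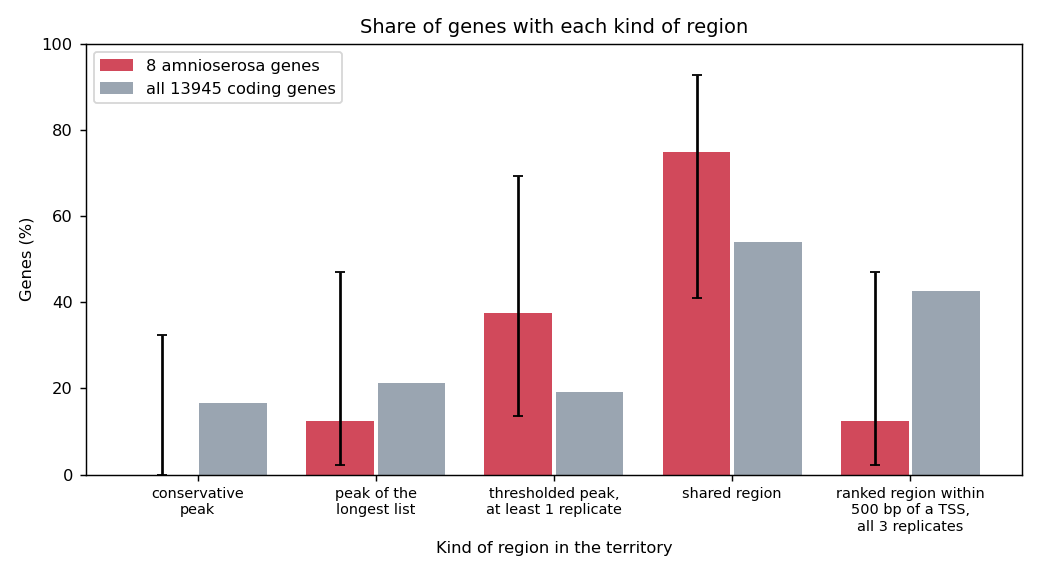
Percent of genes (vertical axis) with each kind of region, for the 8 amnioserosa genes (red, with 95% Wilson intervals) and all 13945 coding genes (grey). Regions were counted in the territory, except those within 500 bp of a TSS, which were counted by that distance alone. The red bars stand at 0 and 12.5% for series-level peaks and at 75% for shared regions, and every interval includes the grey bar's value beside it.

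The windows of 121 bp around the summits of 6 of the shared regions and of 1 thresholded peak are printed here, since they carry the results at ush, tup, C15, Ance and peb. They are given on the forward strand of the dm6 build, 5′ to 3′, read from the RefSeq sequence of the same genome release. The first 3 are the ush regions with the highest mean percentile, with a series-level peak and with a T-box match. Next come the strongest shared regions of tup and C15 and the shared region at a promoter of Ance. Capitals mark CACACC, the reverse complement of GGTGTG, in the only window that holds it.
ush intron, 598 bp after the TSS, chr2L:491373-491493: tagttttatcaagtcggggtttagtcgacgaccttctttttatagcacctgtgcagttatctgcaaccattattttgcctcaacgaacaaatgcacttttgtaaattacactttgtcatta
ush intron, 12491 bp before the next TSS, chr2L:510915-511035: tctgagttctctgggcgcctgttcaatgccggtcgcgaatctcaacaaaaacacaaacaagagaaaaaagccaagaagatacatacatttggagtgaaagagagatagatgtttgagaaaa
ush intron, 11105 bp after the TSS, chr2L:501880-502000: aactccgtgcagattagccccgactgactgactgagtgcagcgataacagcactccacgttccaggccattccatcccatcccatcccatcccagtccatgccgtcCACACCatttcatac
tup intron, chr2L:18871108-18871228: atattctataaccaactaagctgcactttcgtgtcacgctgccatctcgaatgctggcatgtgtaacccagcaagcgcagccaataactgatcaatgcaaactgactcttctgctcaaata
C15 intron, chr3R:21505239-21505359: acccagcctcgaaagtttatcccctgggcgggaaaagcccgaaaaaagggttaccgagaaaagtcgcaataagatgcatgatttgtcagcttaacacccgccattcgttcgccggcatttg
Ance promoter, chr2L:13906300-13906420: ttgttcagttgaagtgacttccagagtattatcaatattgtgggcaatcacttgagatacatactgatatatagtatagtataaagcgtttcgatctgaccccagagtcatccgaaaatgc
peb promoter, chrX:4617354-4617474: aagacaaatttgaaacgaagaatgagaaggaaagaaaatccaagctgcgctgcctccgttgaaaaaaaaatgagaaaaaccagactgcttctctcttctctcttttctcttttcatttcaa
The peb window comes from the thresholded peak of replicate 2. The windows of ush at 598 bp and at 11105 bp overlap exons of non-coding genes, and none of the windows overlaps an untranslated region.

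Of the 12 shared regions, 7 lay in an intron of the gene, 4 upstream and 1 at a promoter, which is within 500 bp of a TSS of the gene. Their summits, averaged over replicates, were also set against the TSSs of all genes, non-coding ones included. By that measure 3 of 12 lay within 500 bp of a TSS (25%, interval 8.89 to 53.2%), against 38.6% of the 13230 shared regions in coding territories. The additional 2 are intron regions of ush, 446 bp from the TSS of lncRNA:CR46258 and 296 bp from that of lncRNA:CR46259. The median distance to any TSS was 2684 bp for the 12, against 994 bp for all. The percentile of a region is the percent of the other regions of its replicate's ranked list with a lower signal, with ties at their average rank. Percentiles from lists of such different length are not on 1 scale. The mean percentile of the 12 over the replicates had a median of 57.5, against 66.8 for all shared regions. Away from TSSs the values were closer, with a median of 55.1 for the 9 regions of these genes and 59.6 for all 8128 such regions. Within 500 bp of any TSS, the 3 regions of these genes had mean percentiles of 92.9 and 61.3 at ush and 51.6 at Ance, against a median of 87.5 for all 5102 such regions.

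**Figure D2:**
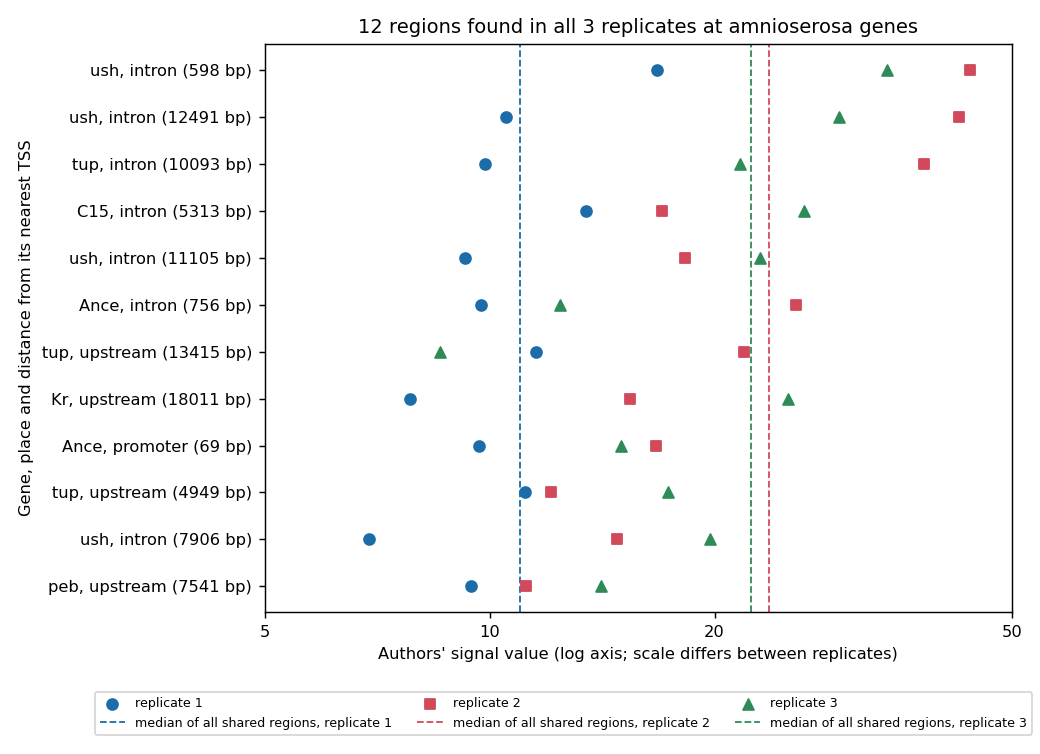
Authors' signal value (horizontal log axis) of the 12 shared regions in replicates 1 to 3 (circles, squares, triangles), ordered by mean percentile, with dashed lines at the median of all shared regions in each replicate. The points of the ush intron region at the top each lie right of their own replicate's line, and those of the peb region at the bottom each lie left of it.

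The gene with the most shared regions was ush, with 4. It spans chr2L:476220-540560 on the forward strand (FBgn0003963), has 4 TSSs and a territory of 51.2 kb in 2 pieces. It held 15, 32 and 35 ranked regions in replicates 1, 2 and 3. That is 2.93, 6.25 and 6.83 per 10 kb, against 2.42, 4.78 and 10.8 for all coding genes. Replicate 3 was thus below the rest of the genome at ush, while replicates 1 and 2 were above it. The strongest shared region, in an intron 598 bp past the TSS at chr2L:490835, had signals of 16.8, 43.9 and 34.1. These correspond to a mean percentile of 92.9 ± 4.88 (SD, n = 3), the highest mean and the smallest SD among the 12. All replicates placed it in the upper part of their list.

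The ush intron also held the peak of the longest series-level list, at chr2L:510697-511180. Its signal was 77.4 and its rank 2917 of 3507, so it belongs to the weaker end of that list. A further entry of the list overlapped it at rank 3500 with a signal of 3.38. The shared region beneath had signals of 10.5, 42.4 and 29.4 in replicates 1, 2 and 3, at percentiles 59.7, 94.5 and 93.5. Replicates 2 and 3 put it near the top of their ranked lists and replicate 1 near the middle. These lists differ in length, so the percentiles do not compare directly between replicates. The remaining shared regions of ush, both in introns, had signals of 9.26, 18.3 and 23.0 at 11105 bp and of 6.89, 14.8 and 19.7 at 7906 bp from the nearest TSS of ush.

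At the second TSS of ush, replicate 2 held a thresholded peak at chr2L:490568-490971, 65 bp upstream. Its signal of 86.6 was exceeded by 50.4% of the replicate's 2486 thresholded peaks. The overlapping ranked region had a signal of 13.7 in replicate 1, and replicate 3 listed none there. Just past the other end of the gene, 356 bp downstream, a conservative peak with a signal of 179 lay nearest to a TSS of lwr, which encodes the SUMO-conjugating enzyme. That peak is 1664 bp into lwr, and a total of 3 conservative peaks lay within 20 kb of the body of ush.

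The homeodomain gene zen, which acts early in specifying the tissue, spans chr3R:6752864-6754194 on the reverse strand (FBgn0004053), with a territory of 5.73 kb. It had 0, 3 and 7 ranked regions in replicates 1, 2 and 3 and was the only one of the 8 with none in replicate 1. Its strongest region in replicate 2 had a signal of 24.6, 588 bp past the TSS in a coding exon. In replicate 3 the strongest lay 2752 bp past the TSS and downstream of the gene, with a signal of 28.0. Each of those replicates also had a region within 500 bp of the TSS, with signals of 20.8 and 14.0 and summits at -468 and -183 bp. The nearest conservative peak lay 5.34 kb upstream of zen, at the promoter of bcd, the gene of the anterior morphogen, with a signal of 126.

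The LIM-homeodomain gene tup spans chr2L:18859507-18881261 on the reverse strand (FBgn0003896), and its territory of 31.0 kb held 7, 16 and 37 ranked regions. Most of them were upstream, with 4, 11 and 23 of these in replicates 1, 2 and 3. Most of the territory is upstream too, as it runs from -20000 to 11006 bp from the TSS. It had 3 shared regions. The intron region had signals of 9.86, 38.1 and 21.6 in replicates 1, 2 and 3, and its percentile ran between 53.5 and 93.2. The upstream region at 4949 bp had signals of 11.1, 12.1 and 17.3, with summits only 21 bp apart across replicates. That spread was 146 bp in the median of the 12 and 160 bp in that of all shared regions. At 13415 bp upstream the signals were 11.5, 21.9 and 8.59. Only replicate 3 listed regions within 500 bp of the tup TSS, the stronger with a signal of 12.7.

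C15, a homeodomain gene of the Tlx family, spans chr3R:21499986-21512814 on the forward strand (FBgn0004863), with a territory of 19.3 kb. It held 5, 6 and 26 ranked regions in replicates 1, 2 and 3, and replicate 3 was the densest at 13.5 per 10 kb. Its shared region, in an intron 5313 bp past the TSS, had signals of 13.4, 17.0 and 26.3 at percentiles 78.2, 46.2 and 90.1. In replicate 1 it was the strongest region of the gene. In replicates 2 and 3 the strongest regions overlapped each other instead, farther into the gene, with summits 8347 and 8181 bp past the TSS and signals of 23.8 and 33.1. A region within 500 bp of the TSS was listed in replicates 1 and 3, with signals of 7.87 and 13.6.

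The zinc-finger gene peb spans chrX:4617564-4627206 on the forward strand (FBgn0003053), with a territory of 26.5 kb and 8, 15 and 32 ranked regions. In replicate 2 a thresholded peak lay at chrX:4617212-4617615, 150 bp upstream of the TSS, with a signal of 56.5. Of that replicate's thresholded peaks, 77.7% were stronger. No replicate 1 region overlapped it, and the overlapping region of replicate 3 had a signal of 15.99 and a percentile of 62.8. The single shared region lay 7541 bp upstream and had signals of 9.43, 11.2 and 14.1. It was the weakest of the 12, with a mean percentile of 39.3 ± 22.1 (SD, n = 3). All 8 regions of replicate 1 were upstream of the gene, where most of the territory lies (-20000 to 6478 bp from the TSS).

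srp, a GATA factor gene of blood, fat body and amnioserosa, spans chr3R:15986152-16004085 on the forward strand (FBgn0003507) and has 4 TSSs. Its 22.7 kb held 2, 13 and 26 ranked regions, and no region was shared. Each replicate nevertheless had a region in the upper percentiles of its list. The strongest had signals of 17.2, 45.2 and 42.7 in replicates 1, 2 and 3, at percentiles 87.9, 95.1 and 98.3. They lay at 3 separate places, in a coding exon 2679 bp past the nearest TSS, in an untranslated exon 850 bp past another, and 2420 bp upstream. Of the thresholded peaks of replicates 1, 2 and 3, 94.2, 86.5 and 89.8% were stronger than these regions. The strongest region of all coding genes had median percentiles of 76.6, 84.5 and 92.4. A conservative peak with a signal of 118 overlapped the end of srp. Its summit lay 109 bp past that end, between srp and GATAe, the gene of another GATA factor. That summit, at 16004194, is just outside the territory of srp, which ends at 16004097. It is 4911 bp upstream of the GATAe TSS. Counting any overlap instead of the summit would give srp this peak and make the count 1 of 8, against 21.8% of all coding genes.

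Kr, on the forward strand at chr2R:25226611-25231394 (FBgn0001325), had few regions for its length. Its territory of 28.2 kb held 1, 8 and 22, or 0.36, 2.84 and 7.81 per 10 kb in replicates 1, 2 and 3. Nearly all were upstream of the gene, with 1, 7 and 21 of these. Most of the territory is upstream as well, as it runs from -18243 to 9928 bp from the TSS. Replicate 2 had a thresholded peak at chr2R:25215149-25215552, 11260 bp upstream, with a signal of 51.8 that 82.3% of its thresholded peaks exceeded. Replicate 1 listed no region there, and replicate 3 a region with a signal of 10.7. The single replicate 1 region, 17923 bp upstream, was shared. There the signals were 7.82, 15.4 and 25.1, at percentiles 29.3, 37.4 and 88.1 of lists of different length. Kr was the only one of the 8 with no conservative peak within 20 kb of the gene body, and the nearest lay 215 kb away at the promoter of zip, the gene of the non-muscle myosin heavy chain.

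Ance, the enzyme gene, spans chr2L:13905645-13909212 on the forward strand (FBgn0012037) and has the smallest territory, 2.73 kb with 3 TSSs. It held 2, 2 and 5 ranked regions, which is 7.32, 7.32 and 18.3 per 10 kb, the densest of the 8 in each replicate. It was the only one with a region within 500 bp of a TSS in all 3 replicates, or 12.5% of the 8 against 42.6% of all coding genes. Signals of that shared promoter region were 9.68, 16.7 and 15, at percentiles 51.4, 44.5 and 58.8. The intron region 756 bp past a TSS had signals of 9.75, 25.7 and 12.4. Its summits spread over 413 bp, the most of the 12 shared regions, and that of replicate 2 lay in a coding exon. Both regions of Ance thus ranked in the middle of their lists, except for replicate 2 in the intron region at percentile 79.9. A conservative peak with a signal of 318 lay 1.05 kb upstream of Ance, 64 bp into Smg5.

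**Figure D3:**
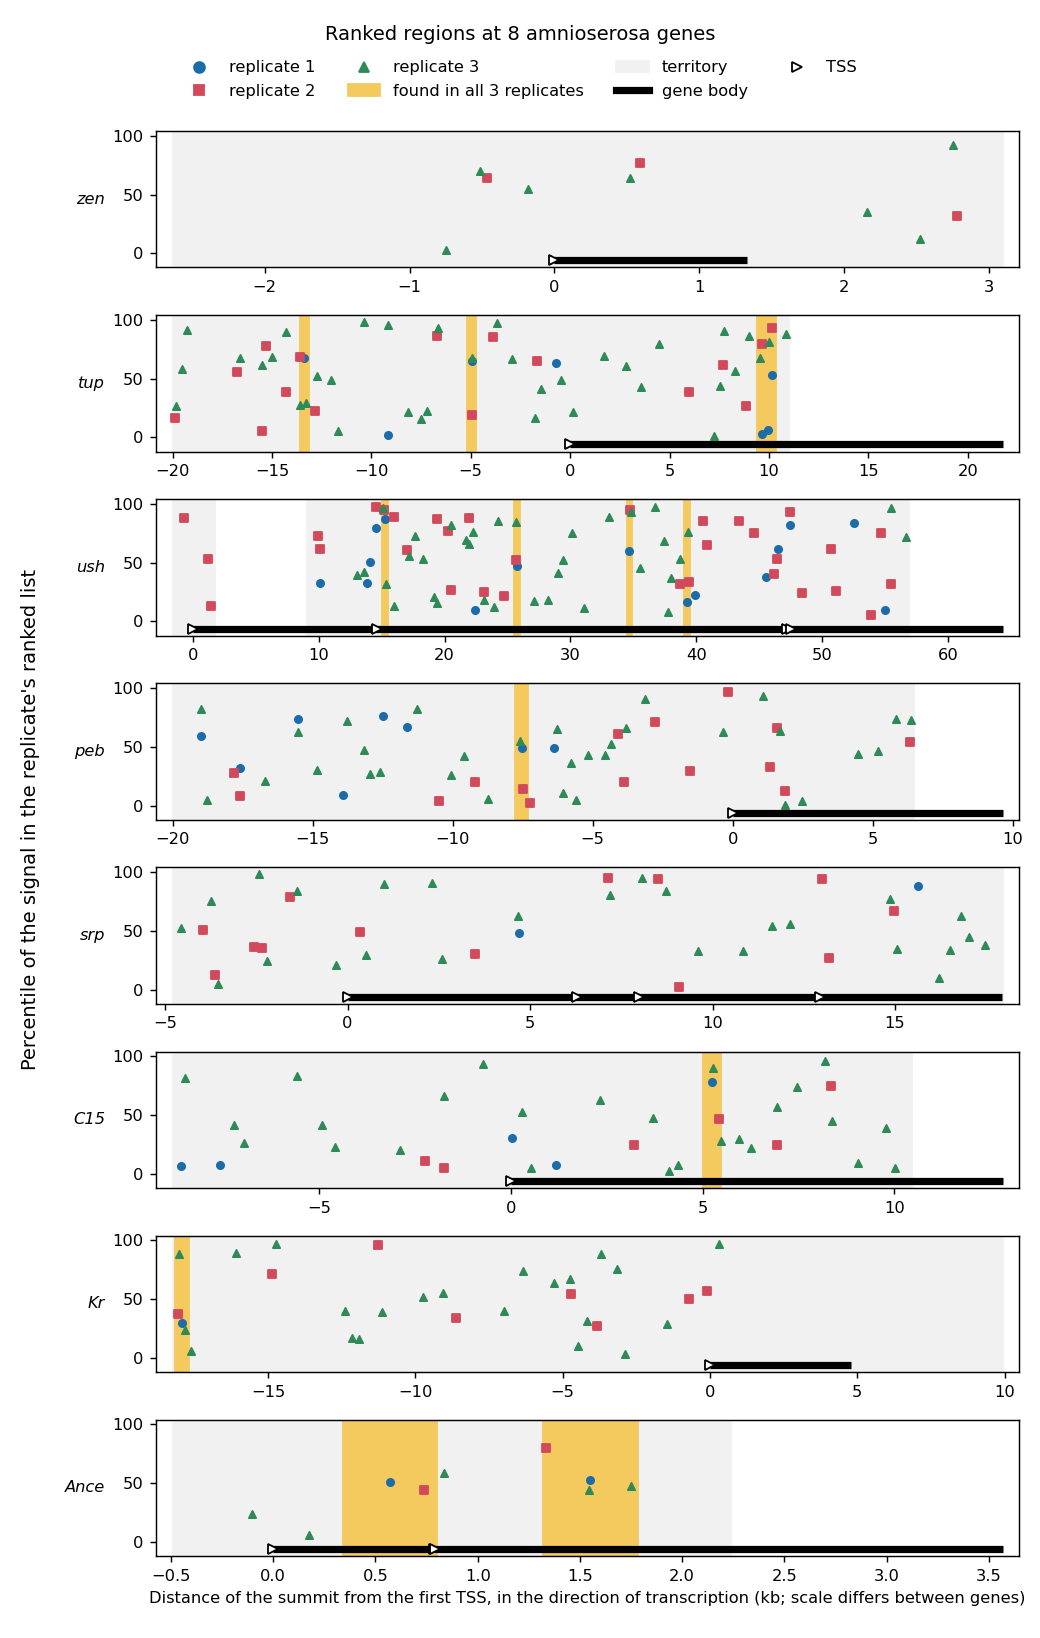
Percentile of each ranked region (vertical axes) against the distance of its summit from the gene's first TSS in kb (horizontal axes, which differ between genes), for replicates 1 to 3 (circles, squares, triangles), with shared regions in yellow and the territory in grey. Kr has points almost only upstream of its TSS, zen has no circle, and ush has 4 yellow bands, the most of any gene.

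The strongest region of each gene was taken, leaving out genes with no region in a replicate. The median percentile was 75.8 over 7 genes in replicate 1, where zen had no region, and 94.2 and 96.4 over all 8 in replicates 2 and 3, a mean of 88.8 ± 11.3 (SD, n = 3). For all coding genes the medians were 76.6, 84.5 and 92.4, with a mean of 84.5 ± 7.92, and 3619, 1920 and 908 genes with no region were left out. Within replicates, the 8 genes were slightly below all coding genes in replicate 1 and above them in replicates 2 and 3. Both SDs describe the spread between lists of different length and are not an error of the difference. The difference was also not adjusted for the larger territories of the 8. The strongest regions seldom coincided. Of the 22 pairs of strongest regions of the same gene in different replicates, 2 overlapped, 1 at C15 and 1 at Ance. No gene had the same strongest region in all replicates.

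**Figure D4:**
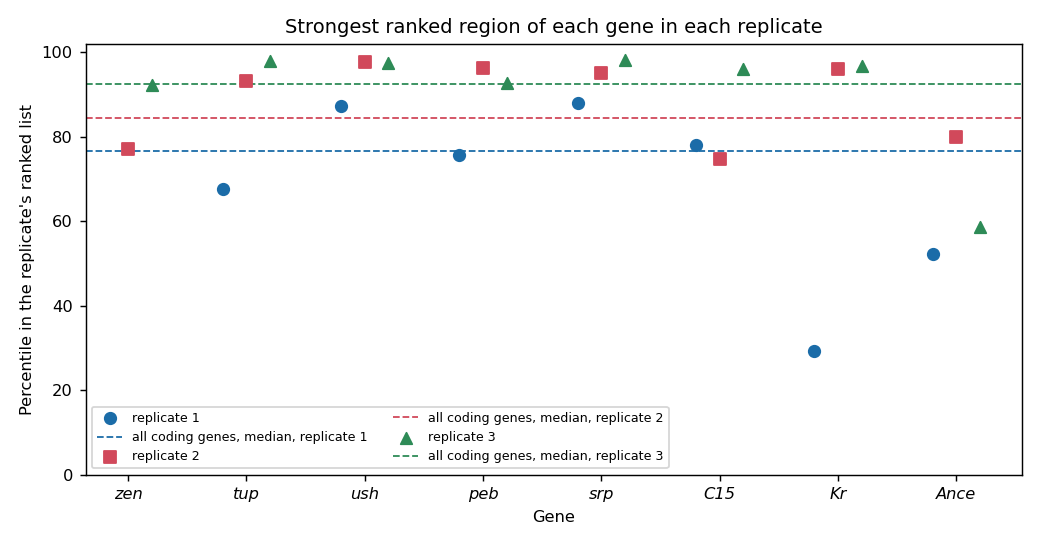
Percentile of the strongest ranked region of each gene (vertical axis) in replicates 1 to 3 (circles, squares, triangles), with dashed lines at the median of all coding genes in each replicate. The highest points are srp in replicate 3 at 98.3 and tup in replicate 3 at 97.9, the Kr region of replicate 1 stands at 29.3, and Ance is below the line in each replicate.

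Promoter regions were set beside those of other genes replicate by replicate. Here only the distance from a TSS counted and the territory was not used, so a region could count for neighbouring genes too. A ranked region lay within 500 bp of a TSS at 3, 6 and 7 of the 8 genes in replicates 1, 2 and 3 (37.5, 75 and 87.5%). The shares for all coding genes were 53.3, 66.8 and 80.5%. Where a promoter region was present, its median percentile was 51.4, 79.0 and 58.8 at the 8 genes, against 87.8, 89.2 and 84.2 at all coding genes. The lower percentile was seen in each replicate. Only srp in replicates 2 and 3, ush and peb in replicate 2 and Kr in replicate 3 had a promoter region above percentile 90.

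The letters GGTGTGA, a core sequence bound by T-box proteins, were searched on both strands within 100 bp of the mean summit. None of the 12 shared regions held them, against 1.80% of all shared regions. At that rate fewer than 1 of 12 would hold them. The shorter GGTGTG was in 1 of 12, the ush intron region 11105 bp past the TSS, against 8.90% of all. The same region was the only one with GAGAGAG, the letters of GAGA factor, against 4.35% of all. TATCGATA, the core of the DNA replication-related element, was in none of the 12 against 6.83%, CAGGTAG, the Zelda letters, in none against 1.10%, and the core promoter element Motif 1 in none against 1.63%. Over 500 bp from a TSS, where 9 of the 12 lay, TATCGATA was in 0.98% and Motif 1 in 0.16% of all shared regions. Within the whole territories there were 15 copies of GGTGTGA, or 0.80 per 10 kb, against 0.72 for all coding genes. Of these, 1, 2 and 4 lay in a ranked region of replicates 1, 2 and 3 (6.67, 13.3 and 26.7%), against 10.2, 20 and 38.7% of the copies at all coding genes. C15 held 3 of the 4 in replicate 3, and tup had 4 copies with none in a region. No copy was in a region of all 3 replicates, against 3.48% for all coding genes.

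A list of 27 other genes tied to the amnioserosa, Dpp signalling and dorsal closure gave a context for the 8. Of these, 4 had a conservative peak (14.8%, interval 5.92 to 32.5%), against the 16.7% of all coding genes. On the longest series-level list the count was 10 of 27 (37.0%, interval 21.5 to 55.8%), against 21.3%, and a thresholded peak of at least 1 replicate lay at 6 of 27 (22.2%, interval 10.6 to 40.8%), against 19.1%. Those with a conservative peak were tkv, a Dpp receptor gene, with 3 peaks and a highest signal of 218, emc with 131, Mad, the gene of the Dpp signal transducer, with 93.0, and dpp itself with 87.1. The strongest peak of tkv and the peaks of Mad and dpp had summits at -7, -72 and +116 bp from a TSS, and the emc peak had its summit at -638 bp. A shared region was found at 23 of 27 (85.2%, interval 67.5 to 94.1%), against 54.1% of all coding genes. Their territories were again larger, with a median of 14.3 kb against 4.33 kb, and they held 1.36 shared regions per 10 kb, against 1.11. A region within 500 bp of a TSS in all 3 replicates was found at 14 of the 27 (51.9%, interval 34.0 to 69.3%), against 42.6% of all coding genes. Among those without a conservative peak, the highest mean percentiles were 96.8 at mys, an integrin gene, 95.7 at sax, a BMP receptor gene, 92.6 at Doc2 and 90.6 at Dad, an inhibitor of Dpp signalling. Signals at the mys promoter were 95.8, 34.7 and 151 in replicates 1, 2 and 3, on scales that differ between the lists. The Doc2 region lay in an intron of Doc2, with signals of 19.7, 33.4 and 35.4.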

How the data were processed

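Deposited peak lists on the dm6 build, per the labels, were used for 3 replicates (1 ranked and 1 thresholded list each) and the whole series (4 thresholded lists). The authors' signal value in these lists is that of their peak caller. Not given in the sources used here are the caller, the aligner, the inputs of each series-level list and the depth. Signals were compared only within a list. No sample columns were left out (0).

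Genes came from Ensembl release 115 (annotation 6.54 of genome release 6, the release of dm6), on 6 chromosome sequences. Peaks were placed by summit. A base equally near to TSSs of 2 genes stayed with both. Analyses used Python 3.11.15, numpy 2.4.6, pandas 2.3.3, scipy 1.17.1 and matplotlib 3.10.9. Placement and overlap were tested on simulated data. Replicates are labelled biological, and all belong to 1 group, so no p-value was computed.

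The members, the lists and the rules were chosen with earlier results of these data known. All 8 members are named. Of the wider list, genes with a conservative peak and the 4 others with the highest mean percentile of a shared region are named. Named too is the gene nearest to the closest conservative peak of each member. Alternatives changed the list, the flanks, the placing, the overlap rule, the promoter distance, the motif and the replicates used.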

Additional observations from a re-analysis of the deposited data

How the results depend on the processing

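Of 51 alternative values, 35 stayed within 1.5 times the main count, or within the SD or interval of the main value. Some of the 35 could not have moved, so their number does not measure how stable the results are. Leaving out each replicate in turn gave these ranges: 0 to 3 genes with a thresholded peak (0 without replicate 2), 18 to 55 shared regions (55 without replicate 1, 26 without replicate 2), a median percentile of 85.0 to 95.3, a promoter share of 16.4 to 27.8%, and 0 to 1 shared regions with the T-box core. For conservative peaks, leaving out a replicate, the stronger 50% of the list and flanks of 5 kb can only remove peaks, so they could not change the 0. The same holds for the T-box core with a window of 50 bp or the longer AGGTGTGA. All thresholded peaks came from replicate 2, so leaving out replicate 1 or 3 could not change the 3. The count of genes with a conservative peak became 1 on the longest series-level list (ush), 1 by any overlap (srp) and 7 with nearer bases kept, against 65.9% of all coding genes. Thresholded peaks in at least 2 or in all 3 replicates left 0 genes. Shared regions fell to 5 with summits within 100 bp and to 3 with the top 50% of each list, while replicate 2 or 3 as the anchor, chosen after seeing the data, gave 13 and 14. The median percentile was 69.2 over shared regions and 63.1 over regions within 500 bp of a TSS. The promoter share was 8.33% at 250 bp and also 8.33% from TSSs of the member only. GGTGTG gave 1 region with a T-box match. The cause of these shifts was not tested. No paired analysis was possible because all samples form 1 group. With depth unknown, the lists cannot show whether an unlisted region is absent.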
